A study of Saccharomyces cerevisiae with 6 samples.

Results

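Hexose transport and glucose sensing in budding yeast (Saccharomyces cerevisiae) were followed through 30 genes chosen by name: 16 hexose transporter genes (HXT1 to HXT11 and HXT13 to HXT17), the sensor genes SNF3 and RGT2, the genes that carry and execute their signal, the MIG repressor genes and the 3 hexose kinase genes. Of the 5379 genes on the array, 29 were members, each with a single spot. SNF3 had no spot in the platform annotation used here and was not analysed. A value on all 3 arrays was held by 25 members, and only those entered the test; HXT11, HXT17, YCK2 and MIG2 had values on arrays 1 and 3 alone.

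The study compared methanol-treated with untreated cultures of strain S288C, a haploid laboratory strain. Treated cultures, growing exponentially at 25 °C in rich medium with 2% glucose, were brought to 5% methanol once their optical density was 1 and were exposed for 2 h. Untreated cultures were kept for another 2 h with no addition. Both groups thus shared the strain, the medium and the starting density. Poly(A) RNA of the treated culture was labelled with Cy5 and that of the untreated culture with Cy3, and each of the 3 arrays, from independent cultures, was read once with high and once with low laser power. Ratios are given as log2 of methanol over untreated, averaged over the scans of an array and centred on the array's median gene. That direction is likely, from the dyes, and is not stated with the values, nor is the base of the logarithm; with the opposite direction each sign below would turn.

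Budding yeast takes up glucose by facilitated diffusion through the Hxt proteins, which differ in affinity. Hxt1 and Hxt3 are low-affinity carriers that cells use when glucose is plentiful, and Hxt2, Hxt6 and Hxt7 are high-affinity carriers used when it is scarce. The membrane sensors Snf3 and Rgt2, which resemble transporters, signal through the casein kinases Yck1 and Yck2 and the ubiquitin ligase subunit Grr1 to remove Mth1 and Std1, the partners that keep the repressor Rgt1 on HXT promoters. In parallel, the zinc finger repressor Mig1, controlled by the Snf1 kinase and assisted by the hexokinase Hxk2, shuts off high-affinity transporters and genes for other carbon sources while glucose is high.

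Transporter transcripts were higher in methanol in both affinity classes, the high-affinity ones by more on each array, and the hexose kinase genes split, with HXK1 and GLK1 higher and HXK2 lower. Of the 25 members tested, 19 rose, 2 fell and 4 did not pass limma's test (Benjamini-Hochberg adjusted p under 0.05 over all genes tested). Over all 4336 genes tested 50.3% were called, 26.0% higher and 24.2% lower, against 76% of the members called higher. Members were chosen with earlier results of these data known, so their shares are given as a description. The members' median log2 ratio was 1.19, against −0.01 for all genes tested. A rise of at least 2-fold was called for 15 members, against 7.54% of all genes, and a fall of that size for 1 member, HXK2, against 5.63% of all genes. The sign was the same on all 3 arrays for 24 of the 25 members and for 72.4% of all genes tested; HXT14 was the exception.

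**Figure D1:**
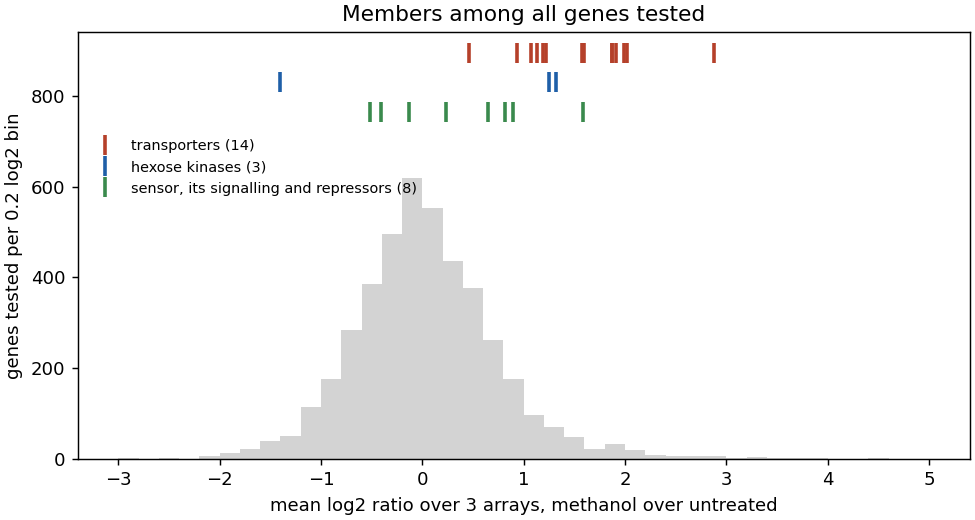
Histogram of the mean log2 ratio (x axis, methanol over untreated, 3 arrays) of the 4336 genes tested, with the number of genes per bin on the y axis and a tick for each of the 25 members tested. The 14 transporter ticks run from 0.46 to 2.88, and HXK2 at −1.40 is the lowest tick.

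The arrays differed in coverage. Replicates 1, 2 and 3 had a value for 5166, 4399 and 5339 genes, so array 2 was the sparsest. Where a member had both scans on an array, in 26 cases, the high-power ratio minus the low-power ratio lay between −0.39 and 0.33. HXT2, HXT3, HXT6, HXK1 and GLK1 had values at low power only on every array, a pattern that 29 of all genes showed. Per the labels, the low-power scan served to recover spots whose signal exceeded what the scanner could read. Of the 24 non-member genes with that pattern 14 were higher and 1 lower, with a median log2 ratio of 0.47, so genes valued at low power only leaned to higher ratios as well; the part of this in the members' values was not tested. HXT7 had a value at low power only on arrays 1 and 3, and HXT1 and HXT4 on array 3. Low power only on any array held for 8 of the 29 members, or 27.6%, and for 2.23% of all genes on the array. Every gene of the high-affinity and low-affinity classes was thus among them. HXT8, HXT9, HXT10, HXT14, GRR1 and RGT1 had values at high power only on every array, as did 1035 genes in all, whose median log2 ratio was 0.01. Of the genes that mark the alpha mating type of this strain, MF(ALPHA)2 and STE3 had values in all 6 scans, and MF(ALPHA)1 was not among the genes analysed. The a-type genes MFA1 and MFA2 had values in 2 scans each and STE2 in 3. Their log2 ratios were 0.90 and 0.265 for MFA1 (arrays 2 and 3). On arrays 1 and 3 they were −0.06 and 0.39 for MFA2 and 0.54 and 0.31 for STE2. A value thus does not by itself show that a gene is expressed. Spot intensities were not used here, so no level of a transcript can be given.

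**Figure D2:**
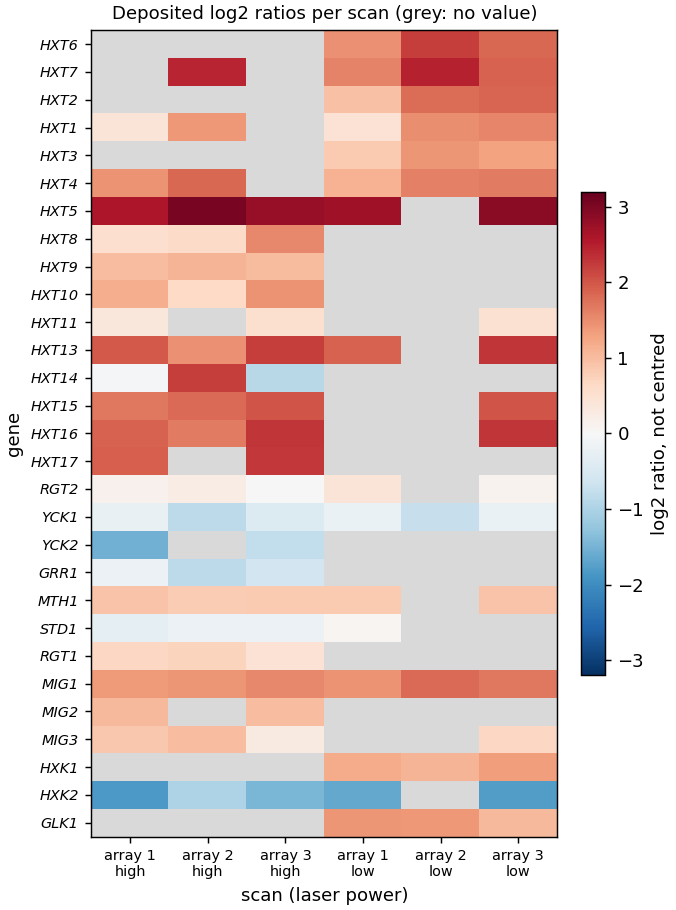
Deposited log2 ratios of the 29 members (rows) in the 6 scans (columns, high power left, low power right), before centring, with grey where no value was given. HXT6, HXT2, HXT3, HXK1 and GLK1 are grey in all 3 high-power columns, and HXT8, HXT9 and HXT10 in all 3 low-power columns.

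Among the high-affinity carriers, all 3 genes rose. HXT7 (YDR342C) had log2 ratios of 1.64, 2.51 and 1.91 on arrays 1, 2 and 3, a mean of 2.02 ± 0.44 (SD, n = 3) or 4.05-fold (limma adjusted p = 0.000164). Its neighbour HXT6 (YDR343C), whose coding sequence is nearly identical, stood at 1.52, 2.26 and 1.85, a mean of 1.88 ± 0.37 or 3.67-fold (limma adjusted p = 0.000152). The spots of such a pair may bind both transcripts, and their ratios differed by only 0.14 ± 0.10, so they may not be independent measurements. HXT2 (YMR011W), a carrier that is induced when glucose is low, stood at 0.99, 1.84 and 1.89, a mean of 1.58 ± 0.50 or 2.98-fold (limma adjusted p = 0.000661). All 3 genes had their lowest ratio on array 1.

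The low-affinity carriers also rose, by less. HXT1 (YHR094C), which cells induce at high glucose, had 0.49, 1.48 and 1.60, a mean of 1.19 ± 0.61 or 2.28-fold (limma adjusted p = 0.00359). HXT3 (YDR345C), a low-affinity carrier expressed over a wide range of glucose, had 0.88, 1.45 and 1.32, a mean of 1.22 ± 0.30 or 2.32-fold (limma adjusted p = 0.000661). The values of array 1 were again the lowest, and for HXT1 that array stood well below the other two, which averaged 1.54.

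The classes were compared within each array. The 3 high-affinity genes averaged 1.38, 2.20 and 1.88 on arrays 1, 2 and 3, a mean of 1.82 ± 0.41, and the low-affinity pair 0.69, 1.47 and 1.46, a mean of 1.20 ± 0.45. The difference was 0.70, 0.74 and 0.43, a mean of 0.62 ± 0.17, which is 1.54-fold and has the same sign on 3 of 3 arrays. With HXT6 and HXT7 counted once, as a setting chosen after the data were seen, it was 0.60, 0.65 and 0.43, a mean of 0.56 ± 0.12. The values of the classes overlapped between arrays but not within any array, and both classes were lowest on array 1.

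Single pairs, which rest on the same genes, gave the same order. HXT7 exceeded HXT1 by 1.15, 1.02 and 0.31, HXT6 exceeded HXT3 by 0.64, 0.81 and 0.53, and HXT2 exceeded HXT1 by 0.50, 0.36 and 0.29. With 3 arrays the exact sign-flip permutation test (two-sided) cannot go below p = 0.25, the value it gave for each of the 5 pairs that had all arrays, also after adjustment over them. That floor belongs to this test and holds whatever the size of a difference, so the order within each array is given as a description, with its spread.

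**Figure D3:**
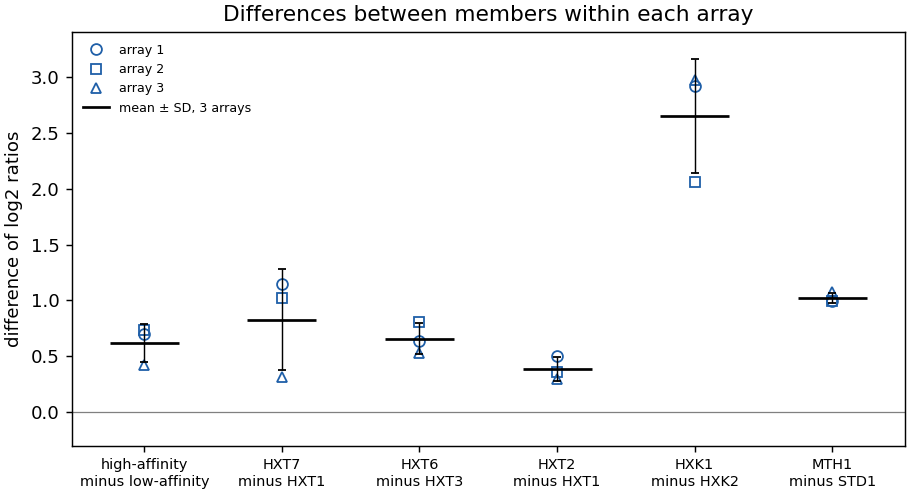
Differences of log2 ratios within each array (y axis) between the high-affinity and low-affinity means and between 5 pairs of members (x axis), with a symbol per array, a line at the mean and bars of ± SD (n = 3). Every point lies above 0, the HXK1 and HXK2 pair stands highest at 2.65, and the MTH1 and STD1 pair is the tightest.

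HXT5 (YHR096C), a carrier of intermediate affinity known for its expression in slow growth, starvation and stress, had the largest ratio of the members. Its values were 2.69, 3.09 and 2.86, a mean of 2.88 ± 0.20 or 7.36-fold (limma adjusted p = 2.34e-05), above 99.6% of the genes tested. No other transporter reached its lowest array. HXT4 (YHR092C), the other carrier of intermediate affinity, had 1.33, 1.78 and 1.68, a mean of 1.60 ± 0.23 or 3.02-fold (limma adjusted p = 0.000152).

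HXT4, HXT1 and HXT5 lie together on chromosome VIII and HXT7, HXT6 and HXT3 on chromosome IV, with at most 1 other gene between neighbours in the R64 gene table. Neighbours differed to unequal degrees. HXT5 exceeded HXT1 by 2.20, 1.61 and 1.26, and HXT7 exceeded HXT3 by 0.76, 1.06 and 0.59. HXT4 exceeded HXT1 by 0.84, 0.30 and 0.08, and HXT7 exceeded the near-identical HXT6 by 0.12, 0.25 and 0.06. These comparisons were chosen after the values were seen.

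**Figure D4:**
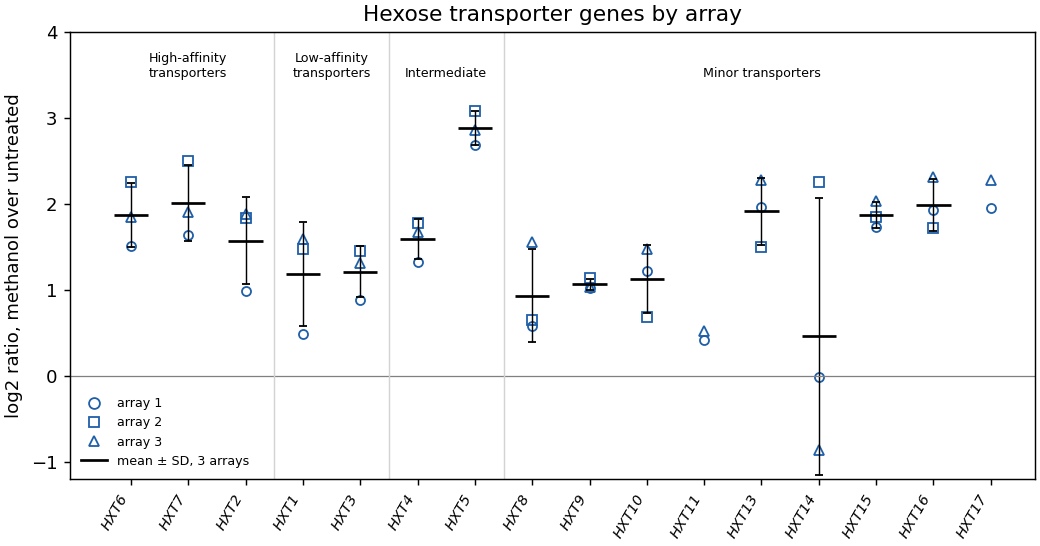
Log2 ratios (y axis) of the 16 transporter genes (x axis, by affinity class), with a symbol per array and the mean ± SD where all 3 arrays had a value. HXT5 is highest at 2.88, array 1 is lowest for most genes, and HXT14 spans −0.86 to 2.25.

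The remaining HXT genes are minor carriers that laboratory strains hardly need for growth on glucose. Of their 9 genes 7 were tested, 6 rose and HXT14 did not pass. That is 85.7% called higher, against 26.0% of all genes tested. HXT13, HXT15, HXT16 and HXT17 form a group of close relatives with 3 to 8 other genes between each and the nearer chromosome end in the R64 gene table, and have been linked to the uptake of mannitol and sorbitol. HXT16 (YJR158W) stood at 1.93, 1.72 and 2.31, a mean of 1.99 ± 0.30 or 3.97-fold (limma adjusted p = 9.84e-05). HXT13 (YEL069C) had 1.96, 1.50 and 2.28 (1.92 ± 0.39), and HXT15 (YDL245C) 1.74, 1.85 and 2.03 (1.88 ± 0.15). HXT17 (YNR072W) had 1.96 on array 1 and 2.28 on array 3, and passed when genes with values on 2 arrays were admitted (mean 2.12, limma adjusted p = 0.000704). Shared signal between these relatives was not tested. As a group HXT13, HXT15 and HXT16 were highest on array 3 and averaged 1.88, 1.69 and 2.21, an order of arrays unlike that of HXT6 and HXT7, which were highest on array 2.

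The other minor carriers moved less. HXT9 (YJL219W), whose product and that of HXT11 have been tied to drug sensitivity, was the most even of the transporters, with 1.03, 1.14 and 1.04, a mean of 1.07 ± 0.06 or 2.10-fold (limma adjusted p = 0.000475). Its close relative HXT11 (YOL156W) stood lower, at 0.42 and 0.52 on arrays 1 and 3, and did not pass with 2 arrays (limma adjusted p = 0.0579). HXT9 exceeded HXT11 by 0.61 and 0.52 on those arrays, a comparison chosen after the values were seen. Shared signal between these relatives was not tested.

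HXT10 (YFL011W) had 1.22, 0.69 and 1.47, a mean of 1.13 ± 0.40 (limma adjusted p = 0.00153). HXT8 (YJL214W) had 0.59, 0.66 and 1.56, a mean of 0.93 ± 0.54 (limma adjusted p = 0.0071), and 0.62 without array 3, so its size rests on that array. HXT14 (YNL318C), whose product can carry galactose, gave −0.01, 2.25 and −0.86. The arrays disagree in sign, the mean of 0.46 ± 1.61 did not pass (limma adjusted p = 0.466), and no direction can be given.

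Across the 14 transporters tested the median was 1.59, with 13 higher, 0 lower and 12 higher by at least 2-fold. The share called higher was 92.9%, against 26.0% of all genes, of which 7.54% were higher by at least 2-fold. Near relatives among the transporters may share signal, so these counts may not be of independent measurements. The lowest of a gene's 3 values was on array 1 for 10 of them, on array 2 for 3 and on array 3 for 1. By array, the median over the transporters was 1.28, 1.75 and 1.76. The spread over arrays was somewhat above the usual one on these arrays, with a median SD of 0.29 over the members tested against 0.22 over all genes.

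In the sensor arm, GRR1 fell, RGT2 and YCK1 did not pass the test, and YCK2 was lower on the arrays that measured it. RGT2 (YDL138W), the sensor of high glucose, had 0.33, 0.28 and 0.09, a mean of 0.23 ± 0.13 that did not pass (limma adjusted p = 0.162). GRR1 (YJR090C), the F-box subunit that marks Mth1 and Std1 for destruction, had −0.15, −0.80 and −0.60 and fell by 0.51 ± 0.34 (limma adjusted p = 0.0278). That call was lost without array 2 (−0.37, limma adjusted p = 0.0684) and without array 3 (−0.47, limma adjusted p = 0.128). YCK1 (YHR135C) had −0.18, −0.73 and −0.31, a mean of −0.41 ± 0.29 at the edge of the threshold (limma adjusted p = 0.0507). Its near relative YCK2 (YNL154C) had −1.49 on array 1 and −0.77 on array 3 and passed when genes with values on 2 arrays were admitted (mean −1.13, limma adjusted p = 0.0101). All measured values of the kinases and of GRR1 were below 0, and those of RGT2 above it.

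MTH1 and STD1, paralogs whose products bind Rgt1 and the sensors, differed. MTH1 (YDR277C) had 0.92, 0.85 and 0.90 and rose 1.85-fold (0.89 ± 0.03, limma adjusted p = 0.000997). STD1 (YOR047C) stood at −0.08, −0.14 and −0.17 and did not pass (−0.13 ± 0.05, limma adjusted p = 0.392). MTH1 exceeded STD1 by 1.00, 1.00 and 1.07, a mean of 1.02 ± 0.05, the narrowest spread of the pairs compared. RGT1 (YKL038W), the repressor itself, had 0.72, 0.75 and 0.48 and rose 1.57-fold (0.65 ± 0.15, limma adjusted p = 0.00482), a call lost without array 1 (0.61, limma adjusted p = 0.0535). Ratios of the repressor gene and of MTH1 were thus above 0 on every array, as were those of the transporters that Rgt1 is known to repress. A link between them was not tested.

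All MIG genes had ratios above 0. MIG1 (YGL035C), the main repressor of glucose-repressed genes, had 1.45, 1.65 and 1.64 and rose 2.99-fold (1.58 ± 0.11, limma adjusted p = 0.000116); it was valued in all 6 scans. MIG3 (YER028C), a related zinc finger repressor, had 0.90, 1.04 and 0.50 and rose 1.75-fold (0.81 ± 0.28, limma adjusted p = 0.00334). MIG2 (YGL209W), which shares targets with MIG1 and is itself induced by glucose, had 1.08 on array 1 and 1.02 on array 3 and passed when genes with values on 2 arrays were admitted (mean 1.05, limma adjusted p = 0.00451). MIG2 minus MIG1 was −0.37 and −0.62 on those arrays.

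The hexose kinases, which trap the sugar by phosphorylation, moved apart. HXK1 (YFR053C), the hexokinase gene that glucose represses, had 1.24, 1.13 and 1.37 and rose 2.37-fold (1.25 ± 0.12, limma adjusted p = 0.000289). GLK1 (YCL040W), the glucokinase gene, had 1.47, 1.44 and 1.05 and rose 2.50-fold (1.32 ± 0.24, limma adjusted p = 0.000353). HXK2 (YGL253W), the main hexokinase gene on glucose, had −1.68, −0.93 and −1.60 and fell to 0.378 times the untreated level (−1.40 ± 0.41, limma adjusted p = 0.000661). No value of HXK2 came near those of the other kinases: HXK1 exceeded it by 2.92, 2.06 and 2.97, a mean of 2.65 ± 0.51 or 6.28-fold. HXK1 and GLK1 were valued at low power only and HXK2 at both, apart from array 2, where it had the high-power value alone and its smallest fall.

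**Figure D5:**
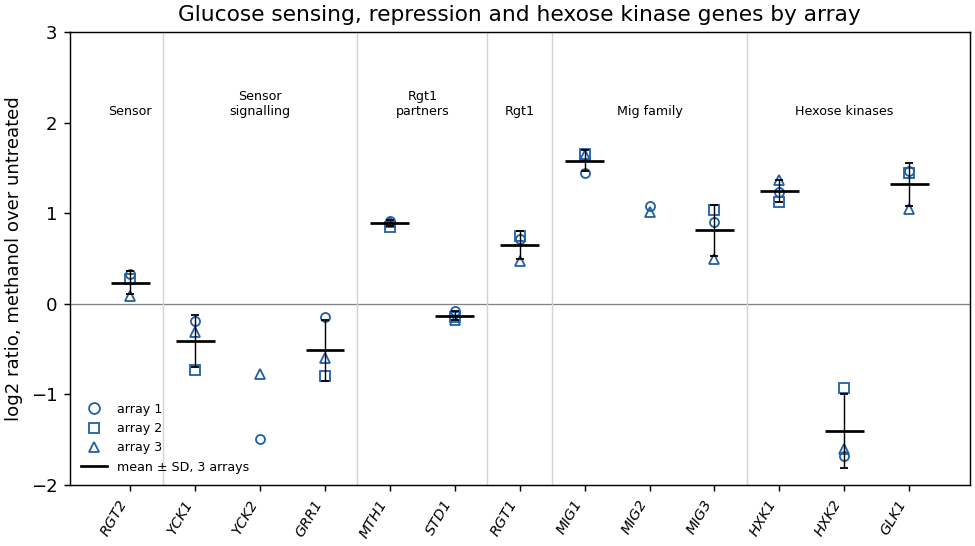
Log2 ratios (y axis) of the 13 other members (x axis, by role), with a symbol per array and the mean ± SD where all 3 arrays had a value. MIG1 at 1.58 is the highest and HXK2 at −1.40 the lowest of those with 3 arrays, and the 3 points of MTH1 and of STD1 nearly coincide.

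Genes that work beside the members were taken from lists by function. Of 34 genes, 26 were tested, 10 rose and 5 fell, which is 57.7% called, near the 50.3% of all genes, with a median of 0.15.

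In the list of the Snf1 kinase and the Glc7 phosphatase, 4 of 9 rose and 3 fell. That is 77.8% called against 50.3% of all genes, and 44.4% higher against 26.0%. REG2, a regulatory subunit of Glc7, rose 2.60-fold (1.38 ± 0.21, limma adjusted p = 0.000261), the single gene of these lists past 2-fold among those valued on all 3 arrays. TOS3, a kinase that activates Snf1, stood at 0.59 ± 0.34, and SIP2 and SIP1, scaffold subunits of the Snf1 complex, at 0.58 ± 0.27 and 0.46 ± 0.10. SNF4, the activating subunit, fell by 0.67 ± 0.42, the phosphatase gene GLC7 by 0.65 ± 0.17 and the scaffold gene GAL83 by 0.36 ± 0.07. SNF1 itself stood at −0.53, 0.22 and −0.26 and did not pass (limma adjusted p = 0.361). The subunits of this kinase thus went both ways.

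Sugar carriers outside the HXT members, with hexokinase-like genes, rose in 6 of 7 cases (median 0.80), or 85.7% against 26.0% of all genes. HXT12, a pseudogene close to HXT9 and HXT11, stood at 0.95 ± 0.14, and shared signal with them was not tested. The maltose and alpha-glucoside carrier genes MAL11 (0.92 ± 0.35), MPH3 (0.88 ± 0.44), MPH2 (0.80 ± 0.13) and MAL31 (0.79 ± 0.19) rose, as did NGK1 (0.63 ± 0.18). Shared signal among the MAL and MPH genes was not tested. GAL2, the galactose carrier that also takes up glucose, had 0.53 on array 1 and 2.17 on array 3, was not tested over all arrays and passed with 2 (mean 1.35, limma adjusted p = 0.0342). EMI2, a close relative of GLK1, stood at 0.03, 0.17 and 0.00 and did not pass (limma adjusted p = 0.667), unlike GLK1 at 1.32; their difference was not tested.

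In the list for Grr1 and the casein kinases, 2 of 6 genes fell, or 33.3% against 24.2% of all genes, and 0 rose. These were CDC53, the cullin of the same ubiquitin ligase, at −0.54 ± 0.17, and SKS1, a kinase gene linked to growth on low glucose, at −0.63 ± 0.34. Of the Gpr1 receptor list 2 genes were tested and of the corepressor list 2, and 0 were called in each, against 50.3% of all genes. Lists this short cannot be told apart from that share. GPR1 itself had no spot in the platform annotation used here. GPA2, the G protein gene of the Gpr1 receptor, had 0.83 on array 1 and 0.75 on array 3. It passed when genes with values on 2 arrays were admitted (mean 0.79, limma adjusted p = 0.0112), as did GAL2. The other genes of the pathway lists valued on 2 arrays, SAK1, REG1, TUP1, NRG2 and STL1, did not pass (limma adjusted p from 0.166 to 0.987).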

How the data were processed

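Transcripts were compared on 2-colour spotted arrays, 3 arrays of independent cultures with 2 scans each. The deposited values are log2 ratios per spot, 1 column per scan, to which the authors applied LOWESS normalization on spots with flag 0, per the labels; the log base and direction were taken as above, and background correction is not given in the sources used here. Scans of an array were averaged as 1 replicate. Of 6912 spots 5446 had 1 gene, all found in the R64 reference table, used for names and gene order only. Spots were averaged per gene and arrays centred on their median gene (medians before centring −0.05, −0.05 and −0.02). For genes valued on every array, the mean ratio was set against 0 with limma 3.58.1 (R 4.3.3, moderated by empirical Bayes). A gene was called where the p, adjusted by Benjamini-Hochberg over the 4336 genes, was under 0.05. The number of arrays limits the precision, and without a dye swap any dye effect of a gene is part of its ratio. Members and lists were chosen with earlier results of these data known. Named genes are all members, and of the pathway lists every gene called or past 1 on the log2 scale, with further ones given as context. Alternatives were either scan alone, no centring, arrays scaled to a common spread, genes on at least 2 arrays, genes in all 6 scans, array weights and each replicate left out. Sequences were not used here.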

Additional observations from a re-analysis of the deposited data

How the results depend on the processing

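Of the 25 members tested, 21 kept their direction and their side of the threshold under each alternative that measured them. The exceptions were GRR1 and RGT1, given with their values above, YCK1 and HXT14. YCK1 passed with the high-power scans alone (−0.45, limma adjusted p = 0.0371), the low-power scans alone (−0.37, 0.0453), no centring (−0.45, 0.0358), arrays scaled to a common spread (−0.39, 0.0397) and genes in all 6 scans (−0.41, 0.012). HXT14 turned sign with array weights (−0.025), and ran from −0.43 without replicate 2 to 1.12 without replicate 3. Fewer genes are tested with a single kind of scan: members called higher numbered 11 of 17 with the high-power scans alone, 9 of 10 with the low-power scans alone and 1 of 2 with genes in all 6 scans, and members called lower 3, 1 and 1. Leaving out each replicate in turn gave 18 to 19 members higher and 1 to 2 lower. Over all genes, 1115 of 4217 were called higher with the high-power scans alone and 431 of 1710 with the low-power scans alone. With genes in all 6 scans, 428 of 1596 were called higher. All genes called lower numbered 1072, 485 and 517, in the same order of settings. Leaving out each replicate gave 692 to 1156 higher and 594 to 1074 lower over all genes, the lowest counts being without replicate 1. The transporter median lay between 1.47 and 1.80 over the alternatives that measured transporters, and no transporter had a value in all 6 scans. The difference of MTH1 minus STD1 was 1.08 with the high-power scans alone. The class difference lay between 0.561 and 0.717 over the alternatives that measured all genes of both classes. It was 0.558 with HXT6 and HXT7 counted once. The high-power scans alone and the genes in all 6 scans could not give this difference. No member had several spots, so that alternative did not apply, and the differences of SNF3 minus RGT2, MIG2 minus MIG1 and YCK1 minus YCK2 could not be had on all arrays. No spot intensity was used, so signal over background is unknown.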
